A study of Mus musculus with 2 samples.

Results

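Genes of cellular iron handling were followed through long-read RNA sequencing of mouse heart: the ferritin subunit genes Fth1 and Ftl1, the iron importer Tfrc, the iron exporter Slc40a1, the iron regulatory protein genes Aco1 and Ireb2, and the iron-sulfur assembly genes Iscu and Nfs1. They were taken by gene name, with no threshold on measured values but with earlier results of these data known, and all reads assigned to a gene were counted, whatever the class of transcript model they fell on. The 8 genes were 8 of the 15848 annotated genes with a read in either library, and all 8 had reads in both. Both libraries came from untreated heart of 2-month-old female B6CASTF1/J mice, the F1 cross of C57BL and CAST mice, with 2 µg of total RNA used per library. The labels gave 1 group of 2 replicates and no contrast, so the tests below compare the libraries and cover counting error only. One label field numbered the animals 3 and 4, while the library text named animal 3 for both and the donor identifier was shared. Whether the libraries came from different animals is thus uncertain. The p-values measure neither technical nor biological spread between them.

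Iron that a cell does not use at once is held in ferritin, a hollow shell built from heavy (Fth1) and light (Ftl1) chains. The transferrin receptor (Tfrc) brings iron in, and ferroportin (Slc40a1) lets it out. Iron regulatory proteins 1 and 2, products of Aco1 and Ireb2, bind a hairpin in messenger RNAs, the iron-responsive element: bound before the coding sequence it blocks translation, and bound after it, as in Tfrc, it protects the RNA. In mitochondria the cysteine desulfurase Nfs1 and the scaffold Iscu start the assembly of iron-sulfur clusters, which heart muscle needs in quantity for its respiratory chain.

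The iron-responsive elements are shown first because they tie 4 of the 8 genes to the regulatory proteins and because the long reads show which transcript models hold them. The search took a C, then 5 bases, then the 6-base loop CAGTGN and 5 more bases, on the sense strand of GENCODE M21 transcripts, where the 5 bases before and after the loop could pair (G with T allowed). Capitals mark the bulged C and the loop, and each sequence runs 5′ to 3′ in DNA letters.
Fth1: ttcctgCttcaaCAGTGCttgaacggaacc
Ftl1: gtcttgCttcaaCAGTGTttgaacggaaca
Slc40a1: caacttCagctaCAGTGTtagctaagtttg
Tfrc element 1: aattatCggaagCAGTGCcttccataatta
Tfrc element 2: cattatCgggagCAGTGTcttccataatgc
Tfrc element 3: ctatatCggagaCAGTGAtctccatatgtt
Tfrc element 4: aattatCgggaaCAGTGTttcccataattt
On mm10 these lie at chr19:9982732-9982761 (+) for Fth1, chr7:45459778-45459807 (−) for Ftl1 and chr1:45925464-45925493 (−) for Slc40a1, each in the 5′ UTR of the main transcript (Fth1-201, Ftl1-201 and Slc40a1-201). The 4 elements that the search found in Tfrc lie in its 3′ UTR at chr16:32631219-32631248, chr16:32631598-32631627, chr16:32631663-32631692 and chr16:32631710-32631739, all on the + strand. The element ended 108 bases before the coding sequence in Fth1, 146 in Ftl1 and 200 in Slc40a1. The first of those found in Tfrc began 885 bases after the end of the coding sequence and the last 1376 bases after it.

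The ferritin elements shared 26 of 30 bases and all 10 bases of the paired stem. The Slc40a1 element had the same loop as Ftl1 but shared only 4 of the 10 stem bases with it, and 13 of 30 bases in all. Among the Tfrc elements the first and second were most alike, with 25 of 30 bases, and the second and the third least alike, with 18. All 5 stem pairs were A-T or G-C in 6 of these 7 elements, whereas the second Tfrc element had 4 such pairs and a G-T pair. None of the transcripts of Aco1, Ireb2, Iscu or Nfs1 matched. The search is strict, since it matched only 2 of 8 other messenger RNAs described with an element and left out, for example, Epas1 and Slc11a2. A transcript without a match may thus still hold one, and Tfrc may hold more than the 4 found. The motif was present in 448 of 55450 annotated genes (0.808%). In a 5′ UTR it was found in 20 of 8944 coding genes with at least 10 reads (0.224%), and in a 3′ UTR in 76 of them (0.850%). Tfrc was the 1 gene of 22527 with a coding transcript that held 3 or more in a 3′ UTR. These matches are of letters in annotated transcripts. The alleles of the F1 cross were not read, and binding was not measured.

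The 8 genes ranged widely in abundance, from Fth1, the 25th most abundant annotated gene, to Ireb2, at rank 9962. Levels are given as reads per 1000000 reads of annotated genes (CPM), of which the libraries held 859191 and 707758, so 1 read was worth 1.16 and 1.41 CPM. A long read is counted once whatever its length. Together the 8 genes took 3946 reads in replicate 1 and 2973 in replicate 2, or 4593 and 4201 CPM. Fth1 alone made up 78.9% of these reads in each library.

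**Figure D1:**
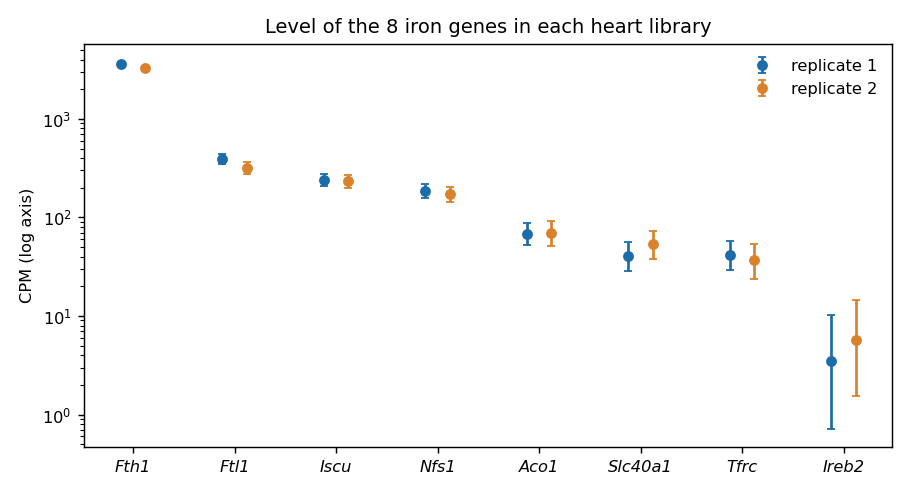
Level of each of the 8 genes in replicate 1 and replicate 2, in CPM on a log axis, with the exact Poisson 95% interval of the reads in each library. The genes fall from Fth1 at 3622 and 3313 CPM to Ireb2 at 3.49 and 5.65 CPM, and the intervals of the 2 libraries overlap for every gene except Fth1.

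Ferritin heavy chain RNA dominated the group. Fth1 (chr19:9980598-9985098, +) had 3112 reads in replicate 1 and 2345 in replicate 2, which is 3622 and 3313 CPM, with a mean of 3468 ± 218 (SD, n = 2). The level was 0.915 times as high in replicate 2 (exact 95% interval 0.867 to 0.965), a log2 ratio of -0.13. The adjusted p was 0.0832 by a two-sided exact binomial test on the library totals (Benjamini-Hochberg adjustment over 9334 genes), so the difference did not pass. It rested on the scaling: by the same exact test the adjusted p was 0.00189 with edgeR's TMM factors (log2 ratio -0.17) and 2.63e-05 with DESeq2 size factors (log2 ratio -0.21), both under 2-fold. Ftl1 (chr7:45457944-45459884, −) had 336 and 226 reads, or 391 and 319 CPM, with a mean of 355 ± 50.7 (SD, n = 2) and a rank of 389. It was also lower in replicate 2, by a ratio of 0.817 (0.687 to 0.969), and did not pass in the same exact test (adjusted p = 0.420).

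Of Fth1 and Ftl1 reads, the heavy chain made up 90.3% in replicate 1, with a Wilson 95% interval of 89.2 to 91.2, and 91.2% in replicate 2, with one of 90.1 to 92.2. The intervals of the libraries overlapped. Transcripts of both genes are of like length, with mean read models of 942 and 967 bases, so the ratio does not turn on length. Protein and subunit makeup of the shell were not measured.

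The light chain value depends on where its reads were placed. A retrocopy, Ftl1-ps1 (chr13:74399694-74407346, +), has a single-exon transcript, Ftl1-ps1-202, annotated as protein-coding, that matches Ftl1-201 over 910 bases with 4 mismatches and no gap (99.56% identity). Counted from 1 at the 5′ end of Ftl1-201, the substitutions are A196G, G721A, G757A and A817G, with the base of Ftl1-201 first. These are bases of the annotated transcripts, and the alleles of the F1 cross were not read. The 5′ UTR of Ftl1-ps1-202 holds an element identical to that of Ftl1 in all 30 bases.

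Ftl1-ps1 was assigned 337 reads in replicate 1 and 237 in replicate 2, which is 392 and 335 CPM. It thus took 50.1% (46.3 to 53.8) and 51.2% (46.6 to 55.7) of the reads of the pair, and neither locus led beyond counting error. Of 5 annotated copies of Ftl1 with at least 95% identity, Ftl2-ps had 2 and 1 reads, and Gm15590, Ftl1-ps2 and Gm12164 had 0, which allows up to 3.49 and 4.24 CPM each. How the authors' counting divided reads between loci that differ at so few bases is not given in the sources used here, so the levels of Ftl1 and Ftl1-ps1 are uncertain on their own. The reads of Ftl1 and its copies came to 675 and 464, or 721 ± 91.9 CPM (SD, n = 2), against 355 for Ftl1 alone. With them the heavy chain share was 82.2% (80.9 to 83.4) and 83.5% (82.1 to 84.8). Fth1 had no annotated copy of this kind.

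**Figure D2:**
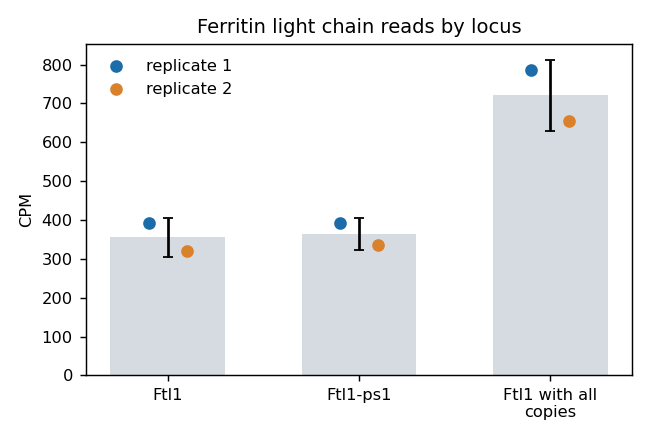
CPM of Ftl1, of its retrocopy Ftl1-ps1, and of Ftl1 with all of its near-identical copies; points are replicate 1 and replicate 2, bars the mean and whiskers the SD over the 2 libraries. The retrocopy, at 392 and 335 CPM, was assigned as many reads as Ftl1, at 391 and 319 CPM.

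The importer and the exporter were sparsely read. Tfrc (chr16:32608920-32632794, +), which takes up transferrin-bound iron, had 36 and 26 reads, or 41.9 and 36.7 CPM, with a mean of 39.3 ± 3.65 (SD, n = 2). Slc40a1 (chr1:45908068-45926523, −), the sole known iron exporter of mammalian cells, had 35 and 38 reads, or 40.7 and 53.7 CPM, with a mean of 47.2 ± 9.16. Slc40a1 was 1.32 times as high in replicate 2, with an exact interval of 0.811 to 2.15 that takes in 1. Tfrc stood at 0.877 times, with an interval of 0.508 to 1.49. Neither difference passed (adjusted p = 0.870 and 1, exact binomial test). The values of the genes overlapped between the libraries, so their order cannot be given from these reads.

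Of the pair of iron regulatory proteins, Aco1 carried nearly all reads. Aco1 (chr4:40143081-40198338, +), whose product is a cytosolic aconitase when it holds its iron-sulfur cluster and an RNA-binding protein when it does not, had 59 and 49 reads. That is 68.7 and 69.2 CPM, with a mean of 69.0 ± 0.398 (SD, n = 2), and the libraries were equal within counting error (ratio 1.01, 0.676 to 1.498). Ireb2 (chr9:54863789-54912530, +), which encodes the iron regulatory protein that is degraded when iron is plentiful, had 3 and 4 reads, or 3.49 and 5.65 CPM. Its 7 reads were below the minimum of 10 for a test. The Aco1 share of the pair was 95.2% in replicate 1, with a Wilson 95% interval of 86.7 to 98.3, and 92.5% in replicate 2, with one of 82.1 to 97.0. Unlike the ferritin pair, the main transcripts differ in length, at 3832 bases for Aco1 and 5770 for Ireb2. Whether length lowered the Ireb2 count was not tested, so the share is one of reads.

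The iron-sulfur assembly genes were read in similar numbers in both libraries. Iscu (chr5:113772748-113778288, +), the scaffold, had 206 and 164 reads, or 239.8 and 232 CPM, with a mean of 236 ± 5.69 (SD, n = 2) and a rank of 624. Nfs1 (chr2:156123639-156144186, −), which supplies the sulfur, had 159 and 121 reads, or 185 and 171 CPM, with a mean of 178 ± 9.97 and a rank of 880. Iscu took 56.4% of the reads of the pair in replicate 1 (51.3 to 61.4) and 57.5% in replicate 2 (51.7 to 63.1). Their ratios between the libraries were 0.966 (0.782 to 1.19) and 0.924 (0.723 to 1.18), and neither passed (adjusted p = 1 and 0.994, exact binomial test). The first 148 bases of Nfs1 overlap Romo1 on the opposite strand, which had 150 and 108 reads. Whether strand was used in the counting is not given in the sources used here, but 142 and 108 of the Nfs1 reads followed its 12 introns.

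In order of mean CPM the genes were Fth1, Ftl1, Iscu, Nfs1, Aco1, Slc40a1, Tfrc and Ireb2. Per kb of mean model length the order was the same, at 3680, 367, 247, 88.3, 18.4, 14.5, 8.93 and 1.44 CPM per kb. In each library the Poisson intervals of CPM overlapped between Iscu and Nfs1, between Aco1 and Slc40a1, and between Slc40a1 and Tfrc. They did not overlap between the other neighbours, which were Fth1 and Ftl1, Ftl1 and Iscu, Nfs1 and Aco1, and Tfrc and Ireb2. These are differences in reads per gene and not in protein. In a whole-tissue sample, fewer cells of a type and less RNA per cell cannot be told apart.

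A call between the libraries needed a 2-fold ratio as well as an adjusted p below 0.05. None of the 7 genes tested was called by this exact test, where 30 of 9334 genes were (0.321%). Without the fold minimum the count was also 0, against 107 genes (1.15%), of which 70 were lower in replicate 2 (0.75% of the genes tested). With TMM factors or DESeq2 size factors and no fold minimum, a setting chosen after the data were examined, Fth1 was the 1 gene of the 7 to pass, against 121 (1.3%) and 139 (1.49%) of all genes. At an unadjusted p below 0.05, Fth1 (p = 0.00115) and Ftl1 (p = 0.0197) were 2 of the 7, against 796 of all genes (8.53%), by the same exact test. By edgeR's exact test with a preset variation of 0.1 or 0.2 the count was 0 as well. Of the 7 genes, 5 had a lower and 2 a higher value in replicate 2 (Aco1 turned lower, at -0.03 and -0.06, with TMM and DESeq2 factors), and their median log2 ratio was -0.11, where the median of all genes tested was 0.05 and 44.9% were lower.

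**Figure D3:**
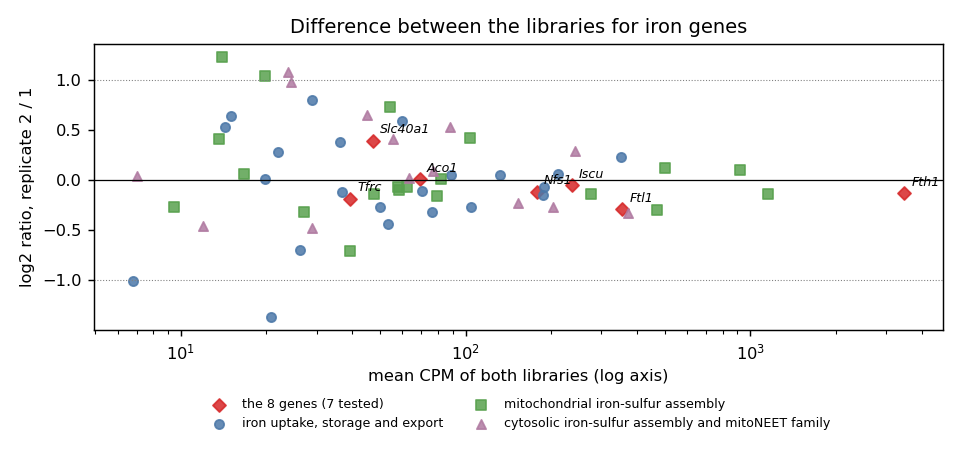
Log2 ratio of replicate 2 to replicate 1 against mean CPM (log axis) for the 7 genes tested and for the tested members of 3 lists of iron genes; dotted lines mark a 2-fold difference. The 7 genes lie between -0.29 and 0.40, and no gene shown was called.

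Reads of these genes fell mostly on annotated transcript models. The authors' files class a model as annotated, as an incomplete match to an annotated one, as a new combination of known splice sites, as one with a new splice site, or as genomic. Of the reads of the 8 genes, 97.7% in replicate 1 and 97.4% in replicate 2 were on annotated models, against 76.0% and 75.7% over all annotated genes. The group's value is set by Fth1, and genes varied. Ftl1 had 100% and 99.6% on annotated models, Fth1 98.5% and 98.2%, and Iscu 97.1% and 97.0%.

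The longer transcripts stood lower. Aco1 had 89.8% and 93.9% on annotated models, Nfs1 89.3% and 89.3%, and Slc40a1 88.6% and 94.7%. Tfrc, whose main transcript is 4890 bases long, had 72.2% (26 of 36 reads, Wilson 95% interval 56.0 to 84.2) and 80.8% (21 of 26, 62.1 to 91.5). Ireb2, with 5770 bases, had 1 annotated read of 3 and 0 of 4. The median was 82.6% over the 4651 genes that had 20 reads or more in both libraries, so Tfrc was the 1 gene of the 7 tested with a mean below it. None of the 7 was called between the libraries by Fisher's exact test, with an adjusted p of 1 each, where 6 of 4651 genes were called (0.129%).

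**Figure D4:**
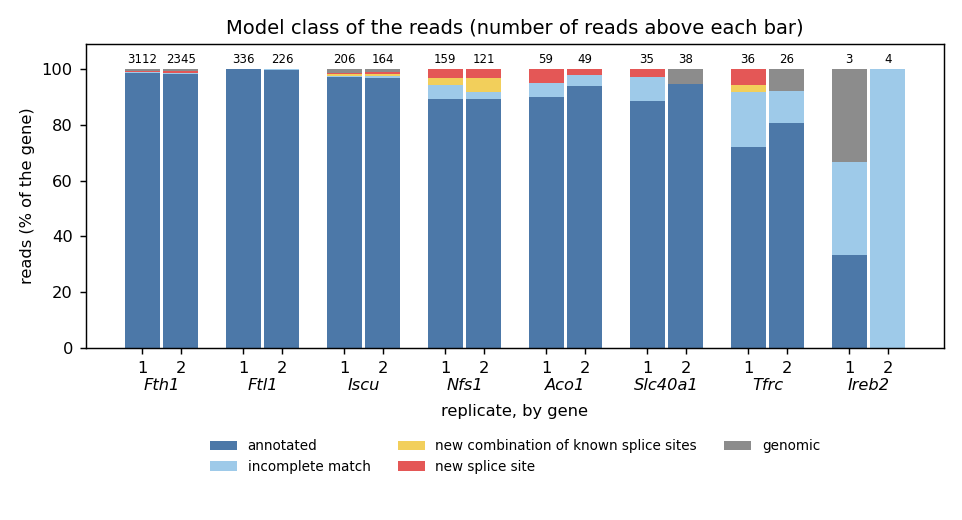
Share of each gene's reads by class of transcript model, in percent, for replicate 1 and replicate 2, with the number of reads above each bar. Annotated models hold nearly all reads of Fth1, Ftl1 and Iscu and a smaller share in Tfrc (72.2% and 80.8%), while Ireb2 has 3 and 4 reads in all.

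Within the annotated models 1 transcript led in each gene. Tfrc-201, Slc40a1-201, Nfs1-201, Aco1-201 and Ireb2-201 were the only annotated models of their genes with reads, out of 7, 8, 4, 4 and 3 annotated transcripts. Fth1-201 held 3061 of 3065 annotated reads in replicate 1 (99.9%) and 2293 of 2302 in replicate 2 (99.6%). The other reads included 2 and 9 of Fth1-208, a retained-intron transcript. Ftl1-201 held 331 of 336 (98.5%) and 223 of 225 (99.1%), and the retained-intron transcript Ftl1-205 had 4 and 2.

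Iscu was the most varied. Iscu-201 held 182 of 200 annotated reads in replicate 1 (91.0%) and 157 of 159 in replicate 2 (98.7%). The remainder in replicate 1 was spread over Iscu-202 with 7 reads, Iscu-203 with 6, Iscu-205 with 4 and Iscu-206 with 1, whereas replicate 2 had 2 reads of Iscu-202 and 0 of the others. Iscu-205 is annotated as a target of nonsense-mediated decay. The difference in the share of Iscu-201 had an unadjusted p of 0.00102 by Fisher's exact test and an adjusted p of 0.980 over 1920 genes, so it did not pass. None of the 3 genes of the group in this test was called, where 1 of 1920 genes was (0.0521%). The median share of the leading model over those genes was 94.0%.

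Models with a new combination of splice sites or a new site held 0.710% and 0.875% of the group's reads, a value set by Fth1, against 8.05% and 9.03% over all annotated genes. Tfrc had 3 of 36 reads (8.33%, Wilson 95% interval 2.87 to 21.8) and 0 of 26. Aco1 had 3 of 59 and 1 of 49, and Iscu 2 of 206 and 2 of 164. Nfs1 was near the value over all genes in both libraries. It had 9 of 159 reads (5.66%, Wilson 95% interval 3.01 to 10.4) and 10 of 121 (8.26%, 4.55 to 14.5). Its reads with a new splice site, 5 and 4, were each on a model of their own, but 2 new introns, at chr2:156126444-156127010 and chr2:156127187-156127665, occurred together in 3 of them, 2 in replicate 1 and 1 in replicate 2. More reads fell on an Nfs1 model of 12 exons that joined exon 4 to exon 6 and had 4 reads in replicate 1 and 6 in replicate 2. The skipped exon 5 (chr2:156134406-156134558, −) is bases 461 to 613 of Nfs1-201, lies within the coding sequence and has 153 bases, or 51 whole codons, so the reading frame is kept. It is shown, all in lower case, because it is the stretch of coding sequence that these reads lack:
Nfs1 exon 5: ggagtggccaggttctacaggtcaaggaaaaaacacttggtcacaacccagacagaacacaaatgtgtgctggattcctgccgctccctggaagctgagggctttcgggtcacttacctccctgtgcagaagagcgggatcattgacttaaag
No protein product of this model was measured.

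Fth1 had 6 models with a new splice site, with 10 reads in replicate 1 and 13 in replicate 2. In 3 of them, 1 for each of the gene's introns, the exon ended 4 bases further downstream with the acceptor in place, and these held 8 and 9 reads. The model at the second intron had 4 and 9 of them. Aco1 had a 20-exon model that left out exon 6 and also had a new splice site, with 2 reads in replicate 1 and 0 in replicate 2. It also had a 21-exon model with a new site, with 1 read in each. Slc40a1 had 1 such read, in replicate 1. The libraries were not tested against each other for these reads. The genome bases at the new splice sites of any of the genes were not read. Whether such small shifts are true splice sites or misplaced alignments was not tested.

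Unspliced and incomplete models made up most of the remainder. For Fth1 the most read was a single-exon genomic model of 2389 bases that runs through all 3 introns, with 23 and 20 reads, followed by an incomplete match with 13 and 10. Iscu had a single-exon genomic model with 3 and 2 reads. Single-exon models held 0.739% and 0.853% of Fth1 reads, 1.46% and 1.22% of Iscu reads, and 11.1% and 7.69% of Tfrc reads. Over 4651 genes the median was 3.27%. Ftl1 and Aco1 had no single-exon reads, in 336 and 226 and in 59 and 49 reads, which allows up to 1.67% and 7.27% by the Wilson interval of the shallower library. No member was called in this share, where 7 of 4651 genes were (0.151%).

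The share of reads on models that reached the annotated 5′ end varied between the genes. Models that began within 200 bases of the start of the main transcript held 99.6% and 99.6% of Fth1 reads, 98.5% and 99.1% of Ftl1 reads, and 98.1% and 98.2% of Iscu reads. For Nfs1 the shares were 95.6% and 98.3%, for Slc40a1 94.3% and 94.7%, and for Aco1 93.2% and 93.9%. For Tfrc they were 77.8% (28 of 36, Wilson 95% interval 61.9 to 88.3) and 80.8% (21 of 26, 62.1 to 91.5). For Ireb2, 1 of 3 and 0 of 4 reads did so, and the only full-length read was the 1 of its 22-exon transcript. Its other reads began at base 2041 or later, and 3 of them, all in replicate 2, were a single-exon stretch of 2900 bases at the 3′ end. Annotated models carry the ends of the annotation, so these shares describe the models and may overstate how far single reads reached.

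**Figure D5:**
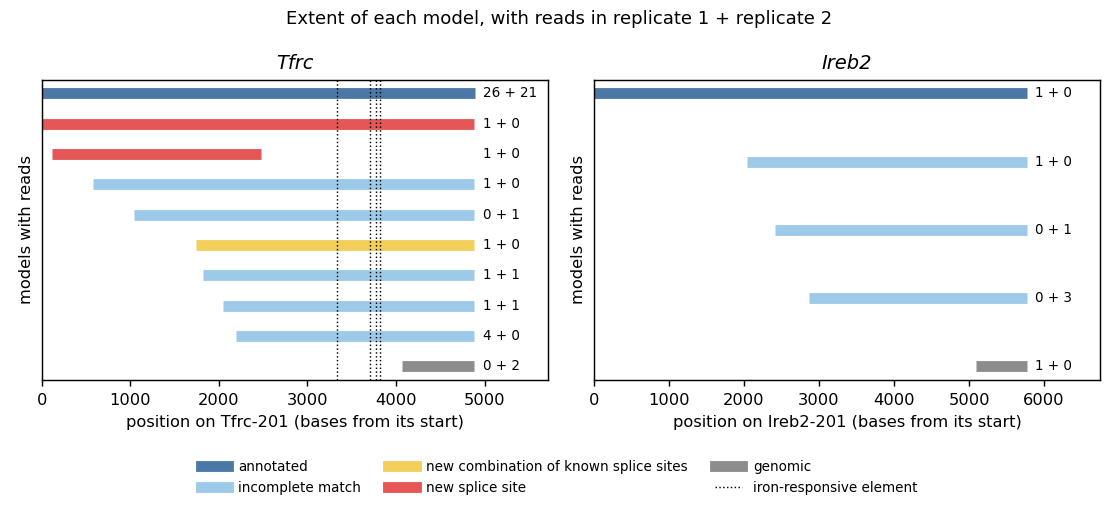
Extent of every model with reads on the Tfrc-201 and Ireb2-201 transcripts, in bases from the annotated start, coloured by class, with the reads in replicate 1 + replicate 2 at the right and the Tfrc iron-responsive elements as dotted lines. The annotated Tfrc model has 26 + 21 reads, and all but 3 of the Tfrc reads lie on models that span the 4 elements found.

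The iron-responsive elements shown earlier lay within the models of nearly all reads. For Fth1, 3097 of 3112 reads in replicate 1 (99.5%) and 2335 of 2345 in replicate 2 (99.6%) were on models whose exons held the whole element. For Ftl1 these were 331 of 336 (98.5%) and 224 of 226 (99.1%), and for Slc40a1 33 of 35 (94.3%) and 36 of 38 (94.7%). For Tfrc, 35 of 36 reads (97.2%, Wilson 95% interval 85.8 to 99.5) and 24 of 26 (92.3%, 75.9 to 97.9) were on models with all 4 elements found. The incomplete Tfrc models kept the 3′ end and so kept the elements even where they lacked most of the coding sequence. Among models other than annotated ones the share was lower. It was 34 of 47 and 33 of 43 reads for Fth1. For Tfrc it was 9 of 10 and 3 of 5, and for Slc40a1 2 of 4 and 0 of 2. Several of these models, among them those of Slc40a1, also carry ends of the main transcript. This share too thus describes models and not the ends of single reads.

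Other iron genes gave the setting, from lists chosen with earlier results of these data known. Of 39 annotated genes of iron uptake, storage and export, 31 had reads, 22 were tested, and 0 were called in either direction (median log2 ratio -0.03). The highest were Hfe2, the bone morphogenetic protein co-receptor hemojuvelin, with 276 and 268 reads (350 ± 40.6 CPM, SD, n = 2). Ncoa4, which carries ferritin to the lysosome, had 178 and 153 reads (212 ± 6.37 CPM), and the heme transporter gene Slc48a1 had 165 and 130 (188 ± 5.91 CPM). The 8 genes at 0 reads in both libraries were Steap1, Tfr2, Hephl1, Ftmt, Meltf, Cybrd1, Tmprss6 and Hpx.

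All 22 listed genes of mitochondrial iron-sulfur assembly had reads, 20 were tested and 0 were called, with a median log2 ratio of -0.07. Ndufab1, the mitochondrial acyl carrier protein, stood at 1156 ± 80.3 CPM, the chaperone gene Hspa9 at 919 ± 44.4 CPM and Isca1, which acts late in the pathway, at 501 ± 30.6 CPM (SD, n = 2 each). All 14 genes of cytosolic assembly and the mitoNEET family had reads and were tested, and 0 were called (median 0.06). Their highest were Cisd1, which encodes mitoNEET, at 371 ± 59.4 CPM, Ciapin1 at 242 ± 33.9 CPM and Glrx3 at 202 ± 26.5 CPM.

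Of 8 other messenger RNAs described with an iron-responsive element, 7 had reads, 6 were tested and 0 were called at 2-fold (median 0.01). Alas2, the heme synthesis enzyme of red cell precursors, stood at 434 ± 29.5 CPM and Epas1 at 138 ± 9.14 CPM (SD, n = 2 each), and Hao1 had 0 reads.

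Markers showed heart muscle with blood, vessel, connective tissue and macrophage RNA. The 8 heart muscle markers summed to 46628 and 49571 CPM. The 9 red cell markers, which include the globins and Alas2, summed to 32410 and 29736 CPM, with Slc4a1 at 0. The 12 macrophage markers summed to 510 and 411 CPM, with 11 present and Fcgr1 at 0. The endothelial list summed to 691 and 687 CPM and the fibroblast list to 1415 and 1376 CPM. Hepatocyte markers summed to 3.49 and 1.41 CPM, with Alb, Apoa1, Serpina1a and Fgb at 0. Skeletal muscle markers summed to 7339 and 7375 CPM, nearly all of it Ckm, which heart also expresses, with Myh1, Myh2, Myh4 and Tnnt3 at 0. Macrophage and red cell sums were lower in replicate 2, as were the values of Fth1 and Ftl1, but not in every marker. Of the 11 macrophage markers with reads, 7 were lower and 4 higher, and without Lyz2 (233 and 157 CPM) and C1qa (76.8 and 41.0 CPM) the other 9 summed to 200.2 and 213 CPM. Of the 8 red cell markers with reads, 6 were lower and 2 higher, the latter Hbb-bs (7867 and 7945 CPM) and Alas2 (413 and 455 CPM). These markers were named after their values were seen, and the part of either cell type in the ferritin values was not tested.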

How the data were processed

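The deposited counts are whole reads per transcript model, 1 file per library, not normalized, made by the authors with TALON on mm10 and GENCODE M21, per the file headers. The aligner and filters are not given in the sources used here. Spike-ins were left out, and the counts of a gene's models were added up and scaled to CPM on reads of annotated genes. Model lengths, exons and ends come from the authors' deposited annotation. The genes and lists were chosen with earlier results of these data known. The libraries were compared by a two-sided exact binomial test, conditional on their totals, for every gene with 10 reads or more, and model shares (at least 20 reads in each library) with Fisher's exact test, each with Benjamini-Hochberg adjustment over all genes. Log2 ratios used 0.5 added reads. With 1 library a side, edgeR (4.0.16) and DESeq2 (1.42.0) gave scaling factors, and edgeR an exact test with preset variation, as alternatives. Named were the 8 genes, annotated models with at least 5 reads, the 3 other models most read per gene and the 3 highest genes of each list, of which 1 is not reported here; models with fewer reads, exon 5 of Nfs1 and the Fth1 splice shifts were described after their values were seen. Near-identical copies were transcripts at least 95% identical over at least 80% of their length (BLAST 2.17.0). Intervals are 95% and cover counting error only, and a count of 0 allows 3 reads. The tests were tried on simulated libraries with known changes and counting error only, so spread between libraries was not tried.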

Additional observations from a re-analysis of the deposited data

How the results depend on the processing

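No paired analysis was possible because the labels gave a single group. None of the 7 tested genes was called at 2-fold under any alternative run, and Aco1 alone changed direction, with TMM factors (log2 ratio -0.03) and DESeq2 size factors (-0.06). With these factors and no fold minimum, alternatives chosen after seeing the data, 1 of the 7 genes passed, Fth1, and 121 and 139 of all genes. These factors shift all log2 ratios by 0.04 and 0.08. The limits are the depth, which leaves Tfrc, Slc40a1 and Ireb2 with wide intervals, and the 2 libraries. Over all genes the count of 30 became 15 on annotated models only, 107 without the fold minimum, and 12 and 4 by edgeR's exact test with preset variation of 0.1 and 0.2. The leading model count of 1 became 2 with incomplete models added, and the annotated share count of 6 became 112 when incomplete models were joined to annotated ones. On annotated models only, which shrinks the total, levels were 4497 CPM for Fth1, 467 for Ftl1, 302 for Iscu, 209.6 for Nfs1, 83.6 for Aco1, 57.4 for Slc40a1 and 0.766 for Ireb2, and the Aco1 share of its pair was 99.1%. On all reads off the spike-ins Iscu stood at 226 and Aco1 at 66.2 CPM. With near-identical copies added Ftl1 stood at 721 CPM and the heavy chain share at 82.8%. The share of reads on models with the element, as a mean of the 2 libraries, was 99.97% on annotated models and 74.5% on others for Fth1, 100% and 25% for Slc40a1, and 100% and 75% for Tfrc. The values on others rest on few reads for Slc40a1 (2 of 4 and 0 of 2) and Tfrc (9 of 10 and 3 of 5). With either library left out, Fth1 ranged from 3313 to 3622 CPM, Ftl1 from 319 to 391, Iscu from 232 to 239.8, Nfs1 from 171 to 185, Aco1 from 68.7 to 69.2, Slc40a1 from 40.7 to 53.7, Tfrc from 36.7 to 41.9 and Ireb2 from 3.49 to 5.65. The heavy chain share ranged from 90.3% to 91.2%, the Aco1 share from 92.5% to 95.2%, and the element share from 99.5% to 99.6% for Fth1, 98.5% to 99.1% for Ftl1, 94.3% to 94.7% for Slc40a1 and 92.3% to 97.2% for Tfrc.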
